A study of Mus musculus with 12 samples.

Results

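Fibrillar collagens are the rope-like proteins of connective tissue, and a small set of enzymes and glycoproteins turns their molecules into cross-linked fibres. The genes described here are 10 such genes: the fibrillar collagen chains Col1a1, Col1a2, Col3a1, Col5a1 and Col5a2, the lysyl oxidases Lox, Loxl1 and Loxl2, and the matrix glycoproteins Fbln2 and Fn1. Members were all probes whose gene name in the scanner files is one of these symbols, which gave 14 probes of 55681 non-control probes on the array, for 10 of 36406 gene names. All 14 probes and all 10 genes passed the filter on dim probes, 9 genes in every group and Col5a2 through 1 group only, and are described in full. Counts of genes called below leave Col5a2 out, since it could pass only where it was high.

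Each of 12 arrays, read in 1 colour, measured total RNA from a culture of mouse embryonic stem cells. There are 4 arrays for each of 3 groups, and the labels describe the 4 samples of a group as independent. Id1KO_Zrf1KD cells carry the Id1 knockout and were also infected with lentiviral hairpins against Zrf1 and selected with puromycin. Id1KO cells carry the knockout alone, and WT cells are wild type. The medium of all groups held serum and LIF (leukaemia inhibitory factor), which keeps mouse embryonic stem cells undifferentiated. Infection, selection and loss of Zrf1 therefore change together between Id1KO_Zrf1KD and Id1KO and cannot be told apart, since cells with a control hairpin are not among the samples analysed here. The labels name no separate lines within a group, so the spread is that between samples, perhaps of a single line per genotype.

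In fibrils, triple helices of collagen I, III and V assemble side by side. Type V chains, the minor component, start the fibril and limit its width. Lysyl oxidases are secreted copper enzymes that oxidise lysine side chains in collagen and elastin, after which the chains join covalently. Fibronectin, the product of Fn1, is the matrix protein on which cells lay down early collagen fibrils, and fibulin-2, the product of Fbln2, binds fibronectin and elastic fibres. In the mouse embryo, fibronectin is made from the earliest stages, whereas abundant collagen I is a product of mesenchyme, of fibroblasts and of bone-forming cells.

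Levels are log2 of the array's processed signal minus the 75th percentile of that array, so that 0 is the brightness of a probe at that percentile. A level ranks samples for 1 probe and does not rank different genes, since probes differ in binding. The Zrf1 gene, listed on the array as Dnajc2, averaged -0.27 ± 0.08 in Id1KO_Zrf1KD, 1.89 ± 0.11 in Id1KO and 2.0 ± 0.12 in WT (SD, n = 4 each), 4.47-fold lower in Id1KO_Zrf1KD than in Id1KO. Id1 averaged 0.68 ± 0.16, 1.23 ± 0.31 and 0.86 ± 0.20 in the same 3 groups. Its only kept probe does not check the knockout, because no source used here says which part of the gene was deleted, and Id1KO is used below as the label of those samples. The 10 embryonic stem cell markers were above background on all arrays. Sox2 fell by 0.24 on the log2 scale in Id1KO_Zrf1KD against Id1KO (adjusted p = 0.002, limma), Nanog was 0.37 higher by its brighter probe (adjusted p = 6e-05) and not called by the other (-0.16), and the difference of Pou5f1 was -0.18 (adjusted p = 0.36). Between 54.8% and 59.3% of spots per array were well above background and no spot was saturated, and the number of arrays limits the precision.

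The enzymes of the LOX family share a catalytic domain, so the sequences that tell their probes apart are shown first. The probe standing for Loxl1 (A_51_P304239, chr9:58138570-58138629 in mm9, minus strand) and a probe of Loxl2 (A_51_P275949, chr14:70092141-70092200 in mm9, plus strand) start at bases 2075 and 2293 of their transcripts. Capitals mark the bases that are identical where the pair aligns best.
Loxl1: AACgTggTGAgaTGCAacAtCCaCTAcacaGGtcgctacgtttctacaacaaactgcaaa
Loxl2: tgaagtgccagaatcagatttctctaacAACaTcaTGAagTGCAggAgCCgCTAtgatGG
They shared 19 of 32 aligned bases (59.4%). A second probe of each gene (A_55_P2096226 of Loxl1, chr9:58145451-58145510, minus strand, and A_55_P2131348 of Loxl2, chr14:70090017-70090076, plus strand, both mm9) is shown because the paired probes of a gene are compared below.
Loxl1, second probe: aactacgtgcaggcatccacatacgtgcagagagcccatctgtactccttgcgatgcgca
Loxl2, second probe: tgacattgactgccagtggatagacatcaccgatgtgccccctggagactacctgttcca
Over the 16 pairs of probes of different lysyl oxidase genes, the highest identity was 60.8% and the longest shared run 9 bases. Over the 70 other pairs of probes of different members these were 60.0% and 9 bases. Each probe is 60 bases long.

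Setting Id1KO_Zrf1KD against Id1KO asks what differed with infection, selection and Zrf1 knockdown together, on the knockout background. The 9 genes above background in every group were all higher in Id1KO_Zrf1KD, at an adjusted p under 0.05 by limma's moderated test, where 32.3% of the 22593 features tested were higher and 72.1% changed in either direction. The 4 Id1KO_Zrf1KD values lay above the 4 Id1KO values for all 9, as for 30.6% of all features. For 8 of them, all but Fn1, the rise was at least 2-fold, as for 7.17% of all features, Loxl2 among the 8 by its brightest probe only. Their log2 fold changes ran between 0.62 and 3.54 with a median of 1.90, where the median of all features was -0.09. Within each of the 3 slides the 9 were higher too, by log2 0.59 (Fn1 on slide 2) to 3.65 (Lox on slide 1). As the samples are bulk RNA, more cells of a type and more of these transcripts per cell cannot be told apart.

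**Figure D1:**
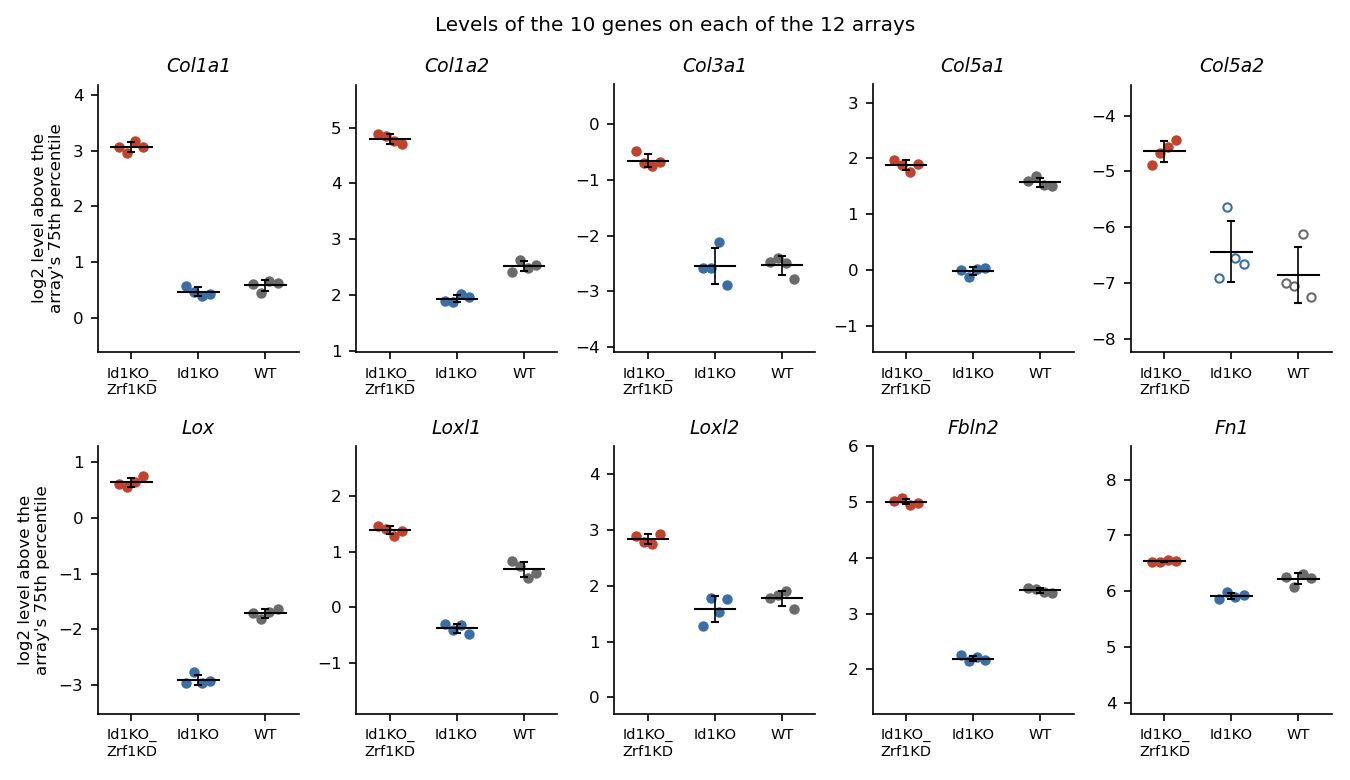
Level of each gene (log2 above the array's 75th percentile, 1 panel per gene, each spanning the same number of log2 units) on every array of Id1KO_Zrf1KD, Id1KO and WT, in replicate order; filled points were well above background, open points were not, and black marks give the mean and SD of 4 arrays. Outside the Col5a2 panel, the Id1KO_Zrf1KD points lie above those of both other groups in all 9. The same holds against Id1KO for 30.6% and against WT for 30.7% of all features. The Id1KO points lie below those of WT in 6 panels, as for 27.5% of features. Col5a2 was kept only for its level in Id1KO_Zrf1KD.

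Collagen I, the main collagen of bone, skin and tendon, is built of 2 chains of Col1a1 and 1 chain of Col1a2. Col1a1 had levels of 3.07, 2.96, 3.18 and 3.07 in Id1KO_Zrf1KD, of 0.58, 0.47, 0.40 and 0.42 in Id1KO, and of 0.61, 0.45, 0.66 and 0.63 in WT. Col1a2 had levels of 4.88, 4.84, 4.75 and 4.70 in Id1KO_Zrf1KD, of 1.90, 1.86, 2.02 and 1.97 in Id1KO, and of 2.41, 2.63, 2.49 and 2.53 in WT. Both chains were high on all 4 Id1KO_Zrf1KD arrays, with no overlap with either other group, while Id1KO lay below WT without overlap for Col1a2 only. Against Id1KO, Id1KO_Zrf1KD was 6.06-fold higher for Col1a1 (log2 2.60 ± 0.06 SE, adjusted p = 1.1e-10) and 7.26-fold higher for Col1a2 (log2 2.86 ± 0.06 SE, adjusted p = 3.9e-11). These changes rank 162 and 111 from the highest of 22593 features. The Col1a1 probe lies on chromosome 11 at 94813115 to 94813174, plus strand, and that of Col1a2 on chromosome 6 at 4490619 to 4490678, plus strand (mm9).

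Collagen III forms fibrils with collagen I in skin, vessels and other stretchable tissues. Col3a1 had levels of -0.49, -0.70, -0.76 and -0.69 in Id1KO_Zrf1KD, of -2.59, -2.58, -2.12 and -2.89 in Id1KO, and of -2.46, -2.39, -2.49 and -2.77 in WT. Id1KO and WT overlapped, and the Id1KO samples spread more widely than those of the other groups (SD 0.32, against 0.12 in Id1KO_Zrf1KD and 0.17 in WT). The rise of Id1KO_Zrf1KD over Id1KO was 3.69-fold (log2 1.88 ± 0.14 SE, adjusted p = 4.7e-07), and 2.27-fold in the least of the other scalings. Its probe lies on chromosome 1 at 45405589 to 45405648, plus strand (mm9).

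Of the type V chains, Col5a1 encodes the one present in nearly all collagen V molecules. Its levels were 1.98, 1.88, 1.76 and 1.90 in Id1KO_Zrf1KD, 0.01, -0.12, 0.01 and 0.04 in Id1KO, and 1.60, 1.68, 1.53 and 1.5 in WT. The Id1KO samples stood apart below both other groups, whose values were near each other and did not overlap. Id1KO_Zrf1KD exceeded Id1KO 3.73-fold (log2 1.90 ± 0.06 SE, adjusted p = 6.2e-10). The probe is on chromosome 2 at 27892892 to 27892951, plus strand (mm9).

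Col5a2 encodes the partner chain of Col5a1. Its probe was well above background on 4 Id1KO_Zrf1KD arrays and on 0 arrays of Id1KO and WT, at levels of -4.89, -4.67, -4.57 and -4.43 in Id1KO_Zrf1KD, -6.91, -5.64, -6.55 and -6.66 in Id1KO, and -7.00, -7.06, -6.12 and -7.25 in WT. Its change can be given only as a bound, taken against the lowest signal of any probe well above background on each array. Id1KO_Zrf1KD was at least 1.16-fold higher than Id1KO and at least 1.43-fold higher than WT. No test is given, because the readings of both other groups lie below background and the probe was kept only for its level in Id1KO_Zrf1KD. With normexp background correction in place of the scanner's, the difference from Id1KO was 0.06 on the log2 scale and was not called. The probe lies on chromosome 1 at 45431204 to 45431263, minus strand (mm9), near that of Col3a1.

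Lox encodes the founding lysyl oxidase of collagen and elastin. Its fold change between Id1KO_Zrf1KD and Id1KO was the largest of the 9 genes above background in every group. The exception was normexp background correction, where Lox differed by log2 2.62, Col1a2 by 2.84 and Fbln2 by 2.81. The brighter of its 2 probes had levels of 0.61, 0.55, 0.64 and 0.74 in Id1KO_Zrf1KD, of -2.96, -2.77, -2.97 and -2.92 in Id1KO, and of -1.70, -1.82, -1.70 and -1.64 in WT. The 3 groups did not overlap, with Id1KO lowest and Id1KO_Zrf1KD highest. Id1KO_Zrf1KD was 11.6-fold higher than Id1KO (log2 3.54 ± 0.06 SE, adjusted p = 1.2e-11), and 6.17-fold higher in the least of the other scalings. The change ranks 36 from the highest of 22593 features. The second Lox probe, which starts at base 1531 of the transcript where the first starts at base 3524, gave 11.6-fold as well (log2 3.53 ± 0.11 SE).

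Loxl1 encodes the lysyl oxidase that the mouse needs to renew elastic fibres. Its probe shown above had levels of 1.46, 1.41, 1.28 and 1.38 in Id1KO_Zrf1KD, of -0.30, -0.41, -0.31 and -0.47 in Id1KO, and of 0.84, 0.75, 0.53 and 0.62 in WT. Here too the 3 groups did not overlap and Id1KO was lowest. Id1KO_Zrf1KD was 3.38-fold higher than Id1KO (log2 1.76 ± 0.07 SE, adjusted p = 3.9e-09). The second probe gave 3.61-fold, so the pair differed by little although they lie at bases 2075 and 1553 of the transcript.

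Loxl2 encodes a lysyl oxidase that acts on collagen IV of basement membranes and on fibrillar collagen. Its brightest probe (chromosome 14, 70095254 to 70095313, plus strand, mm9) had levels of 2.89, 2.78, 2.75 and 2.93 in Id1KO_Zrf1KD, of 1.29, 1.79, 1.52 and 1.76 in Id1KO, and of 1.79, 1.83, 1.91 and 1.59 in WT. Id1KO_Zrf1KD stood above both other groups, and these overlapped. The rise over Id1KO was 2.37-fold by this probe (log2 1.25 ± 0.11 SE, adjusted p = 1.6e-06), which starts at base 4792 of the transcript. The probes at bases 2293 and 2212, both shown above, gave 1.47-fold (adjusted p = 5.7e-05) and 1.30-fold (adjusted p = 0.0018). The 3 probes therefore shared a direction and differed in size, and a rise of at least 2-fold was seen by the first alone.

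**Figure D2:**
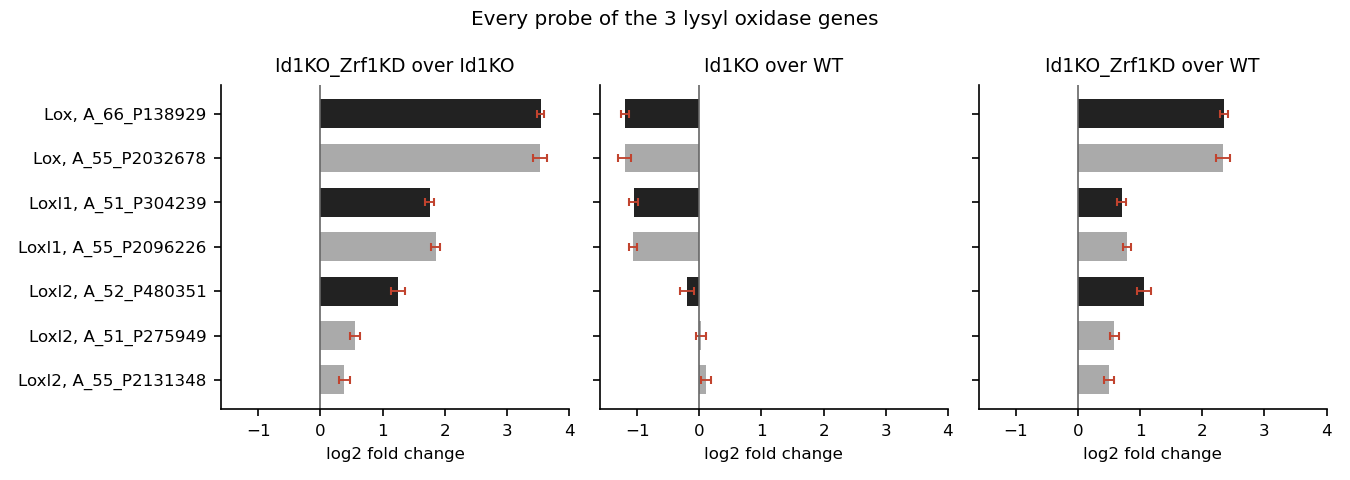
Log2 fold change (x axis) of every kept probe of Lox, Loxl1 and Loxl2 in the 3 comparisons; black bars are the probe that stands for the gene, grey bars the other probes, red lines the SE, n = 4 arrays per group. The probes of Lox and of Loxl1 lie near each other in every panel, and the 3 of Loxl2 run between 0.38 and 1.25 for Id1KO_Zrf1KD over Id1KO.

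Fbln2 had levels of 5.02, 5.06, 4.95 and 4.98 in Id1KO_Zrf1KD, of 2.25, 2.15, 2.22 and 2.16 in Id1KO, and of 3.45, 3.45, 3.39 and 3.37 in WT. The spread within each group was small (SD 0.05, 0.05 and 0.04) beside the gaps between them. Id1KO_Zrf1KD exceeded Id1KO 7.02-fold (log2 2.81 ± 0.04 SE, adjusted p = 6.1e-12). The probe is on chromosome 6 at 91222118 to 91222177, plus strand (mm9).

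Fn1 was well above background on all arrays, at levels of 6.53, 6.52, 6.55 and 6.54 in Id1KO_Zrf1KD, 5.86, 5.98, 5.90 and 5.93 in Id1KO, and 6.26, 6.08, 6.31 and 6.24 in WT. The groups did not overlap, and the change against Id1KO was the smallest of the 9 genes above background in every group. Id1KO_Zrf1KD was 1.54-fold higher than Id1KO (log2 0.62 ± 0.05 SE, adjusted p = 9.2e-07), a change exceeded by 14.9% of all features. Processed signals reached 55960 units in Id1KO_Zrf1KD and none of these spots was saturated. The probe is on chromosome 1 at 71632116 to 71632175, minus strand (mm9).

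The comparison of Id1KO with WT asks how cells labelled as lacking Id1 differ from wild type. Of the 9 genes above background, 0 were higher in Id1KO and 6 were lower, the chains Col1a2 and Col5a1, the enzymes Lox and Loxl1, and both glycoproteins. Of all features 42.5% were higher and 29.6% lower, with 72% changed in either direction. The Id1KO values of the 6 lay below those of WT without overlap, as for 27.5% of features, and 4 of them fell at least 2-fold, as for 7.46%. Over the 9 genes the median log2 fold change was -0.58, where that of all features was 0.15, or 0.02 with quantile normalization.

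Col5a1 fell most among them, 3.02-fold lower in Id1KO (log2 -1.59 ± 0.06 SE, adjusted p = 1.5e-09), and 2.66% of all features fell more. Fbln2 was 2.33-fold lower (log2 -1.22 ± 0.04 SE, adjusted p = 8.1e-10), Lox 2.28-fold lower (adjusted p = 1.8e-08) and Loxl1 2.08-fold lower (adjusted p = 1.7e-07). Smaller falls were those of Col1a2 (1.49-fold, adjusted p = 5.2e-06) and Fn1 (1.24-fold, adjusted p = 0.00025). The second probes of Lox and Loxl1 gave 2.30-fold and 2.09-fold.

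The other 3 of the 9 genes were not called between Id1KO and WT. The log2 difference was -0.12 ± 0.06 SE for Col1a1 (adjusted p = 0.12), -0.01 ± 0.14 SE for Col3a1 (adjusted p = 0.94) and -0.19 ± 0.11 SE for Loxl2 (adjusted p = 0.14). Col5a2 was not well above background in either group, so no fold and no test is given. With the slide as a block, Col1a1 was lower in Id1KO (adjusted p = 0.027), and it was so without WT replicate 2 (log2 -0.17, adjusted p = 0.033). Calls of Col5a2 as higher in Id1KO, with normexp and without WT replicate 3, rest on readings below background and are not read as a difference. Its sign turned under quantile normalization (log2 -0.038) and in the deposited values (log2 -0.015).

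Against WT, the same 9 genes were higher in Id1KO_Zrf1KD, which differs from WT by its Id1KO label, the infection, the selection and the knockdown together. Of all features, 32.4% were higher and 64.6% changed in either direction. The Id1KO_Zrf1KD values of the 9 lay above those of WT without overlap, as for 30.7% of features. At least 2-fold higher were 6 of them, as were 9.04% of features, Loxl2 among the 6 by its brightest probe only. This comparison shares its samples with the 2 above, so it is given for the order of the groups and not as a further test.

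The sizes differed widely between genes. Id1KO_Zrf1KD was 5.58-fold higher than WT for Col1a1, 5.10-fold for Lox, 4.86-fold for Col1a2 and 3.66-fold for Col3a1. Fbln2 was 3.01-fold higher, Loxl2 2.08-fold (1.5-fold and 1.41-fold by its other probes) and Loxl1 1.63-fold (Loxl1 adjusted p = 6e-06). Col5a1 was 1.24-fold higher (log2 0.30 ± 0.06 SE, adjusted p = 0.00093) and Fn1 1.24-fold (log2 0.31 ± 0.05 SE, adjusted p = 0.00025). Levels of Col1a2, Col5a1, Lox, Loxl1, Fbln2 and Fn1 thus ran, from the lowest, Id1KO, WT and Id1KO_Zrf1KD, with each neighbour called apart. For Col1a1, Col3a1, Col5a2 and Loxl2 the order of Id1KO and WT was not settled beyond their spread.

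**Figure D3:**
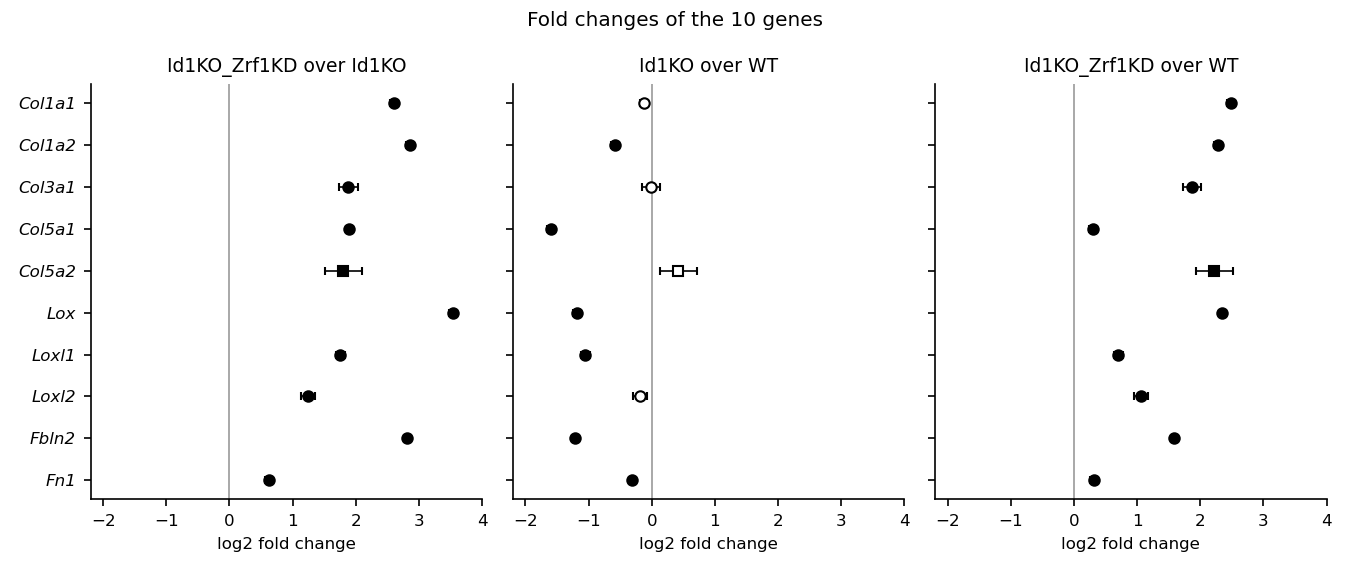
Log2 fold change with its SE (bars, within the symbol where not seen) of each gene in the 3 comparisons, n = 4 arrays per group; filled symbols passed an adjusted p of 0.05, open ones did not, and squares mark Col5a2, for which only a bound holds. The squares are drawn at the unbounded difference, and neither their place nor their fill is read as a result. The 9 other genes lie right of 0 for Id1KO_Zrf1KD over Id1KO, between 0.62 and 3.54. For Id1KO over WT, 6 filled symbols lie left of 0.

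**Figure D4:**
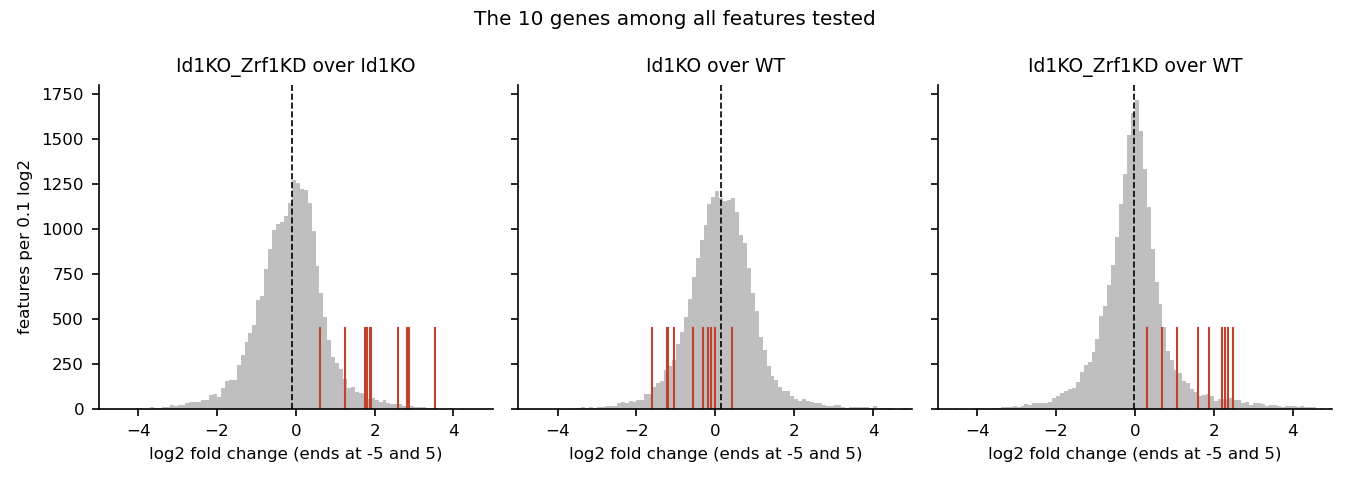
Distribution of the log2 fold changes of all 22593 features (grey, features per bin on the y axis; values beyond the axis are drawn at its ends), with the 10 genes as red lines and the median of all features dashed, in the 3 comparisons. For Id1KO_Zrf1KD over Id1KO the red lines lie to the right of the dashed line at -0.09, that of Col5a2 at a value for which only a bound holds. For Id1KO over WT 9 lie left of the dashed line, with Col5a2, below background in both groups, to its right.

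The 5 features with a gene symbol whose pair of changes lay nearest to the median of the 10 genes (1.89 for Id1KO_Zrf1KD over Id1KO, -0.44 for Id1KO over WT, by Euclidean distance among 12724 candidates, over 3 groups and 12 arrays) were Cdh2, Fst, Ptgs1, Cd44 and Fzd1. Cdh2, the adhesion protein N-cadherin, differed by 1.89 and -0.44 in these comparisons, and Cd44, the hyaluronan receptor, by 1.87 and -0.36. Fst, an antagonist of activin, differed by 1.89 and -0.41, Ptgs1, a prostaglandin synthase, by 1.87 and -0.41, and Fzd1, a Wnt receptor, by 1.79 and -0.42. That median counts Col5a2, which was below background in Id1KO and WT. Over the 9 other genes the medians were 1.90 and -0.58, and the features nearest to that point were not sought. The likeness is a description, since both changes share the Id1KO samples.

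Genes that make, modify and receive these fibres are given as lists, counted over the genes that passed the filter on dim probes in more than 1 group. That leaves out Tll1, Col10a1, Col14a1, Lum, Ogn, Itga1 and Itga4, and the markers Fap and Myh11, each kept through Id1KO_Zrf1KD alone. Genes kept through Id1KO_Zrf1KD and WT stay in, also where no Id1KO array was above background. If called against Id1KO, such genes could only be lower in Id1KO. Among them were Col11a1, Col27a1, Col8a1, Col12a1 and Loxl4. The shares of all features in the same direction were 32.3% higher and 39.8% lower for Id1KO_Zrf1KD over Id1KO, 42.5% and 29.6% for Id1KO over WT, and 32.4% and 32.2% for Id1KO_Zrf1KD over WT. Of the 4 other fibrillar collagens tested, 3 were higher and 0 lower in Id1KO_Zrf1KD than in Id1KO, 0 were higher and 3 lower in Id1KO than in WT, and 1 was higher and 1 lower in Id1KO_Zrf1KD than in WT. Col11a1, a chain of cartilage fibrils, was at least 4.65-fold higher in Id1KO_Zrf1KD than in Id1KO, where it was not above background, and 1.69-fold higher in the least of the other scalings. Col27a1, also not above background in Id1KO, was at least 1.43-fold higher in Id1KO_Zrf1KD than in Id1KO, but 1.01-fold in the least scaling. Col2a1, the main cartilage collagen, was 1.23-fold higher in the same comparison and 1.51-fold lower in Id1KO than in WT.

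Before they form fibrils, collagen chains are hydroxylated, folded and trimmed. Of 22 genes for these steps, 17 were higher and 0 lower in Id1KO_Zrf1KD than in Id1KO, with a median log2 change of 0.57. Among them were the procollagen proteinases Adamts2 (3.07-fold, adjusted p = 2.4e-09) and Bmp1 (2.90-fold by its brightest probe, and log2 0.26 to 1.94 over its 3 probes). The lysyl hydroxylase Plod1 was 2.75-fold higher. In Id1KO against WT 0 were higher and 13 lower, with Plod1 2.40-fold and Adamts2 1.75-fold lower, and in Id1KO_Zrf1KD against WT 10 were higher and 4 lower.

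Collagens that sit on fibrils or form other networks were mixed: 10 of 15 were higher and 3 lower in Id1KO_Zrf1KD than in Id1KO, 1 was higher and 8 lower in Id1KO than in WT, and 6 were higher and 4 lower in Id1KO_Zrf1KD than in WT. Col12a1, which coats collagen I fibrils, was at least 13.1-fold higher in Id1KO_Zrf1KD than in Id1KO, and 2.98-fold in the least of the other scalings. The microfibril chain Col6a1 was 6.67-fold higher (adjusted p = 8e-10), and Emid2, a collagen known also as Col26a1, was 1.59-fold lower.

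Small proteoglycans and matricellular proteins set fibril width and spacing. Of 9 tested, 7 were higher and 2 lower in Id1KO_Zrf1KD than in Id1KO (median log2 2.46), 1 was higher and 7 lower in Id1KO than in WT, and 7 were higher and 1 lower in Id1KO_Zrf1KD than in WT. Thbs1, a thrombospondin that binds collagen, was 12.8-fold higher in Id1KO_Zrf1KD than in Id1KO (adjusted p = 1.7e-11) and 2.68-fold lower in Id1KO than in WT. Dcn, the collagen-binding proteoglycan decorin, was 10.9-fold higher (6.86-fold in the least scaling) and 2.06-fold lower in the same comparisons. Tnxb and Comp were the lower pair in Id1KO_Zrf1KD, by 1.44-fold (1.02-fold in the least scaling) and 1.11-fold.

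Elastic fibres are the other substrate of lysyl oxidases. Of 15 genes of these fibres and their microfibrils, 14 were higher and 0 lower in Id1KO_Zrf1KD than in Id1KO (median log2 1.53), 3 were higher and 10 lower in Id1KO than in WT, and 13 were higher and 1 lower in Id1KO_Zrf1KD than in WT. Efemp2, the fibulin that binds the Lox proenzyme to tropoelastin, was 4.64-fold higher in Id1KO_Zrf1KD than in Id1KO and 2.64-fold lower in Id1KO than in WT. The microfibril protein Mfap2 was 2.42-fold higher in Id1KO than in WT.

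Other cross-linking enzymes were split. Of 6, 5 were higher and 1 lower in Id1KO_Zrf1KD than in Id1KO, 1 was higher and 5 lower in Id1KO than in WT, and 1 was higher and 3 lower in Id1KO_Zrf1KD than in WT. Loxl3, above background on 3 of the 4 Id1KO arrays, was 5.04-fold higher in Id1KO_Zrf1KD than in Id1KO (2.0-fold in the least scaling), and Loxl4 at least 4.03-fold (1.52-fold in the least). Tgm2, the transglutaminase that links glutamine to lysine, was 2.57-fold higher in Id1KO_Zrf1KD than in Id1KO, 7.48-fold lower in Id1KO than in WT and 2.91-fold lower in Id1KO_Zrf1KD than in WT. For Tgm3, 1.55-fold lower in Id1KO_Zrf1KD than in Id1KO, a second probe was higher.

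Cells bind these fibres through integrins, discoidin receptors and syndecans. Of 11 receptors, 10 were higher and 0 lower in Id1KO_Zrf1KD than in Id1KO (median log2 1.22), 0 were higher and 10 lower in Id1KO than in WT, and 7 were higher and 3 lower in Id1KO_Zrf1KD than in WT. Mrc2 was counted by its brightest probe, and a second probe was called the other way in the first and second comparisons (log2 -0.57 and 0.44). The collagen-binding integrin Itga11 was 6.58-fold higher in Id1KO_Zrf1KD than in Id1KO and 2.98-fold lower in Id1KO than in WT. Sdc4, a syndecan that binds fibronectin, was 2.29-fold higher and 13.4-fold lower in these comparisons, and 5.83-fold lower in Id1KO_Zrf1KD than in WT.

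TGF-beta raises transcription of fibrillar collagens in fibroblasts. Of 15 ligands, receptors and targets, 13 were higher and 1 lower in Id1KO_Zrf1KD than in Id1KO (median log2 2.03), 1 was higher and 10 lower in Id1KO than in WT, and 12 were higher and 1 lower in Id1KO_Zrf1KD than in WT. The target Ctgf was 7.51-fold higher in Id1KO_Zrf1KD than in Id1KO and 1.89-fold lower in Id1KO than in WT. Skil, a corepressor of SMAD proteins, was 1.70-fold lower and 2.13-fold higher in these comparisons, while its second probe was not called in the first.

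Transcription factors with a known part in collagen gene transcription were higher in 18 of 19 cases and lower in 1 in Id1KO_Zrf1KD against Id1KO (median log2 0.70). The counts were 6 higher and 8 lower in Id1KO against WT, and 12 higher and 1 lower in Id1KO_Zrf1KD against WT. The immediate early factor Egr1 was 35.6-fold higher in Id1KO_Zrf1KD than in Id1KO (adjusted p = 3.1e-12), Srf 3.75-fold and Nfyc, a subunit of the CCAAT-binding factor NF-Y, 2.05-fold. In Id1KO against WT, Egr1 was 1.57-fold higher and Zeb1 1.78-fold lower. The 1 factor lower in Id1KO_Zrf1KD than in Id1KO was Creb3l1, by 1.37-fold in the least of the other scalings. Creb3l1 was higher in Id1KO than in WT, by 1.36-fold in the least.

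**Figure D5:**
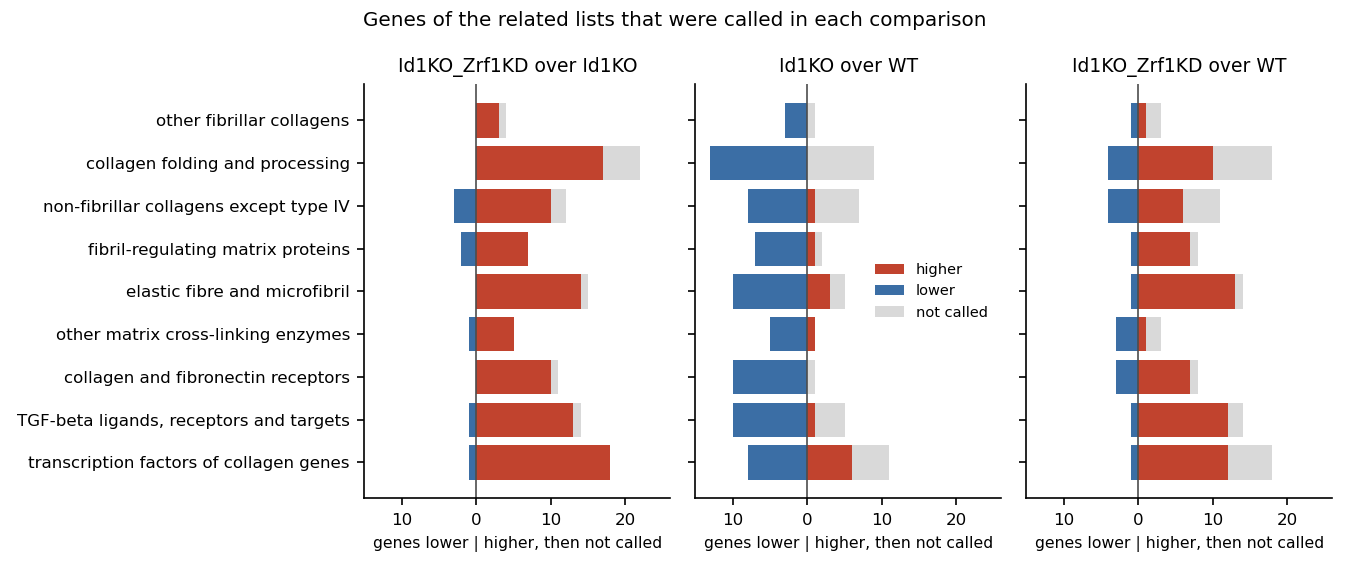
Number of genes of each related list that were lower (blue, left of 0), higher (red, right of 0) or not called (grey, stacked on the red) at an adjusted p of 0.05, in the 3 comparisons. Red bars exceed blue bars in all 9 lists for Id1KO_Zrf1KD over Id1KO, and blue bars exceed red bars in all 9 for Id1KO over WT.

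Promoters are shown for Col1a2, the chain that rose most over Id1KO, and for Col3a1, which holds the most kinds of motif searched. Of the 10 genes, 4 had an entry in RefSeq's promoter table (GRCm38.p6): Col1a2, Col3a1, Col5a1 and Fbln2. The 250 bases before the RefSeq start hold 62.0%, 35.2%, 76.4% and 58.8% G and C in these, where the median of 27025 promoters is 52.0%. Capitals mark matches of CCAAT, of TATAAA, of the SMAD element CAGACA and of the TEAD site GGAATG, on either strand. Col1a2 is given from chr6:4505368-4505617 and Col3a1 from chr1:45311288-45311537, both plus strand in GRCm38.p6.
Col1a2: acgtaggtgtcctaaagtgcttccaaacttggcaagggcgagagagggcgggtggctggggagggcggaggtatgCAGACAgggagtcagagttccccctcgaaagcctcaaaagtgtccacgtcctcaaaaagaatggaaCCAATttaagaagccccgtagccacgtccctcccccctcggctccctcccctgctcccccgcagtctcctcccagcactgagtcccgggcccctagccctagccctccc
Col3a1: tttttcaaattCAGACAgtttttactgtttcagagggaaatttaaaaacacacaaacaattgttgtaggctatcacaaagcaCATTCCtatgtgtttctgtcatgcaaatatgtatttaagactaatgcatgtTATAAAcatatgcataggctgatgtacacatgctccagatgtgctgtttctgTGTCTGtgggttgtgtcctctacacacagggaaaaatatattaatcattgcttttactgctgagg
The CCAAT match, at -109 to -105 of Col1a2, occurred in 34.5% of all promoters and in 1 of the 4. CAGACA occurred in 3 of the 4, Col1a2, Col3a1 and Col5a1, and in 17.1% of all promoters. TATAAA and GGAATG were in Col3a1 alone of the 4, and in 13.0% and 12.6% of all promoters. The AP-1 site TGANTCA and the EGR site GCGNGGGCG, in 6.87% and 4.65% of promoters, were in 0 of the 4. None of these matches overlap, and a match is only a run of letters in this window.

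Markers of other cell types are given beside these genes. Of the 11 fibroblast markers counted, 11 were higher and 0 lower in Id1KO_Zrf1KD than in Id1KO, with Dcn 10.9-fold, Acta2 3.99-fold and Thy1 3.17-fold higher. The summed signal of the 15 markers on the array, in units of each array's 75th percentile, ran from 73.1 to 74.0 in Id1KO_Zrf1KD, from 29.1 to 30.3 in Id1KO and from 30.9 to 31.9 in WT. Tcf21 and Dpt were above background nowhere, and Lum in Id1KO_Zrf1KD only. Of 15 parietal endoderm markers, which mark a cell type that secretes basement membrane, 15 were higher in Id1KO_Zrf1KD than in Id1KO, Thbd by 17.5-fold. Their summed signal was 449 to 461 in Id1KO_Zrf1KD, 146 to 150 in Id1KO and 265 to 280 in WT, and all 15 were above background in every group. Such sums weigh bright probes most. Sparc, at mean levels of 8.02, 6.48 and 7.42 in these 3 groups, held the larger part of this sum by its brighter probe. That probe was log2 0.60 higher in Id1KO_Zrf1KD than in WT, where the second was not called (log2 -0.64). Both Sparc probes were higher in Id1KO_Zrf1KD than in Id1KO. In Id1KO against WT, 4 fibroblast markers were higher and 6 lower, and 3 parietal endoderm markers were higher and 10 lower. Smooth muscle and endothelial markers summed to 30.1 to 36.7, 23.8 to 27.1 and 13.5 to 14.5 in the same groups, with 5 of 6 counted higher and 1 lower in Id1KO_Zrf1KD than in Id1KO, 3 higher and 3 lower in Id1KO than in WT, and Emcn above background nowhere. The 1 lower was Kdr, whose 2 probes were called in opposite directions in both comparisons (log2 -1.44 and 3.03, then 1.27 and -2.64). Embryonic stem cell markers summed to 911 to 923, 1100 to 1230 and 1040 to 1190 in the same groups. Of these 10, 5 were higher and 3 lower in Id1KO_Zrf1KD than in Id1KO, and 3 higher and 5 lower in Id1KO than in WT. In Id1KO_Zrf1KD against WT, 2 were higher and 6 lower. Dcn, Lum, Postn, Twist1, Prrx1 and Sparc stand in 2 lists each. The part of other cell types in the changes of the 10 genes was not tested.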

How the data were processed

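Total RNA was labelled with Cy3 from an oligo-dT primer, per the labels' protocols, so signal comes mostly from the 3′ part of transcripts. Per the file headers, Agilent Feature Extraction 10.7.3.1 made each deposited scanner file, which holds the intensity of each spot (raw mean signal, local background and a background-subtracted processed signal) and flags. The deposited log2 values come in a separate file, whose normalization is not given by any source used here. The other values were computed from the scanner files: log2 of the processed signal minus the array's 75th percentile over non-control spots, without outlier spots (108 to 302 per array), averaged per probe. A probe was kept if, in some group, all 4 arrays had it well above background on 50% or more of its spots, which left 30885 of 55681. The brightest kept probe stood for each gene name, giving 22593 features, of which 217 lack a value on an array.

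Tests used R 4.3.3 with limma 3.58.1 (and the data.table package, version 1.17.8, to read files), with 1 mean per group over 12 arrays, two-sided moderated tests and Benjamini-Hochberg adjustment over all features at 0.05. Fits over single probes were adjusted over all kept probes. Where a group had no array above background, fold changes are bounds, at the processed signal's scale. The script was tested on simulated data. Alternatives were normexp background correction with an offset of 50, quantile normalization, the deposited values, no filter, probes above background on all 12 arrays, the mean of a gene's probes, the slide or the replicate number as a block, values within each of 3 slides, and leaving out each array. "Other scalings" means normexp, quantile and deposited values.

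The members and the 13 lists (186 genes, of which 185 are on the array and 162 tested) were chosen with earlier results of these data known, so no adjustment over a list and no set test was made. Named list genes were, per comparison, up to 4 higher and 4 lower with the smallest adjusted p, beside Dnajc2, Id1, Pou5f1, Sox2, Nanog and the 5 features nearest to the members' median changes. Probe positions are those of the files (mm9), without exon annotation. Promoters are RefSeq's, of GRCm38.p6, a different build.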

Additional observations from a re-analysis of the deposited data

How the results depend on the processing

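The counts of members kept their side in most settings. Without Col5a2, whose call as higher was tied to the filter, 9 were higher for Id1KO_Zrf1KD over Id1KO. This held with normexp and with only probes above background on all arrays. Against WT 9 were higher, with that filter too. In Id1KO against WT, the number higher was 0, but 1 with normexp and 0 to 1 over the arrays left out. That gene was Col5a2 in each case, below background in both groups. The number lower was 6, or 6 to 7 over the arrays left out and 7 with the slide as a block, with Col1a1 as the seventh. The uncalled log2 difference of Col3a1 in Id1KO against WT turned from -0.01 to 0.11 with normexp and ran from -0.15 to 0.10 over the arrays left out, and that of Col5a2 turned to -0.038 under quantile normalization and to -0.015 in the deposited values. Within slides, Col3a1 ran from -0.50 to 0.34 in that comparison and from 1.53 to 2.19 for Id1KO_Zrf1KD over Id1KO. Quantile normalization moved the median of all features in Id1KO against WT from 0.15 to 0.02, with 7960 higher and 7836 lower, where the 75th percentile gave 9595 and 6681. With only probes above background on all arrays, fewer list genes were tested, and 3 other cross-linking enzymes in place of 5 were higher in Id1KO_Zrf1KD than in Id1KO. The replicate numbers were not used as pairs: deviations of same-numbered arrays had a median correlation of -0.20 across features, and 1 of 12 arrays was closest to its own number. Deviations of arrays of different groups on the same slide had a median correlation of 0.24 (0.061 to 0.40 over 16 pairs). The groups lie unevenly over the 3 slides, and the main fit has no slide term. With the replicate block, 10, 6 and 10 members were called, as without it, Col5a2 being among the 10. The causes of these shifts were not tested. Low signal over background limits Col5a2 to a bound, and leaves the sizes for Lox and Col3a1, dim in Id1KO, open to the background correction.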
